A study of Mus musculus with 2 samples.

Results

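The genes described here are interferon-induced GTPases and antiviral genes, many of which mouse cells switch on in response to interferon. They were taken by symbol: guanylate-binding proteins (Gbp), immunity-related GTPases (Irgm1, Irgm2, Igtp, Iigp1), Mx GTPases, the Ifit, Ifitm, Ifi, Isg and Oas genes, the interferon regulatory factors (Irf), and Ifih1, Rsad2, Usp18, Bst2 and Zbp1. The symbols matched 67 genes of 24646 with a symbol on the array, on 71 rows. For the 4 genes found on several rows, the brightest row by mean signal stands for the gene. The symbol pattern also took in Irf2bp1 and Irf2bp2, which bind IRF2 and belong to no interferon-induced family. In the text and figures, interferon-induced genes means the genes taken by symbol, since a match does not show induction by interferon.

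The samples were mammary stromal cells sorted for green fluorescence, 1 sample with stromal Gli2 ablation (Gli2∆S) and 1 control with intact Gli2 (Gli2WT), from littermates 10 weeks of age. Both carried Fsp1-Cre, a Cre recombinase under the Fsp1 (S100a4) promoter, and the Rosa26mTmG reporter, which turns green where Cre has acted. The study asked which stromal factors depend on Gli2, a transcription factor of the hedgehog pathway. With 1 sample per group no difference has a replicate check, and no test across samples was possible. The labels give no strain or sex, and do not say how many animals lie behind a sample. Because the gate followed Fsp1-Cre and not a fibroblast protein, the sorted cells can include leukocytes. Signals of the B cell gene Cd79a (11.53 in the ablated sample and 11.51 in the control sample), the T cell gene Cd3e (11.43 in the ablated sample and 11.09 in the control sample) and the fibroblast gene Dcn (12.01 in the ablated sample and 12.51 in the control sample) all lay above the signal filter used here (a log2 signal of 6.445), and levels of different genes are not compared. For S100a4 the log2 signal was 7.98 in the ablated sample and 8.16 in the control sample. Gli2 had 5.32 in the ablated sample and 5.94 in the control sample, both below that filter, so its difference is no check of the ablation.

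Interferons act through 2 receptor systems. Type I interferons bind Ifnar1 and Ifnar2 and drive a complex with STAT2 and IRF9 to the interferon-stimulated response element, whereas interferon gamma binds Ifngr1 and Ifngr2 and acts through the gamma-activated site. The induced proteins work inside the cell: guanylate-binding proteins and immunity-related GTPases attack the membranes around intracellular microbes, Mx proteins block viral nucleoproteins, OAS enzymes make 2′-5′ oligoadenylates that switch on RNase L, IFIT proteins bind viral RNA, and IFITM proteins hinder the entry of viruses. Many of these genes are also transcribed at a low level without infection.

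Most of these genes had similar signals in both samples. Dim genes were set aside by a signal filter: a gene had to reach a log2 signal of 6.445 in its brighter sample, which splits all genes on the array at their median. It was passed by 53 of the 67 genes and not by the other 14. Among the 53, the difference (log2 signal of the ablated sample minus the control sample) had a median of -0.05, against 0.02 over all 12323 genes that passed. The difference was below 0 in 29 genes, above 0 in 23 and 0 in 1, so that 54.7% were lower in the ablated sample, against a background of 44.8% of all genes. It lay within 0.3 of 0 in 39 of the 53 genes. These genes were no steadier than the rest: the differences had a scaled median absolute deviation of 0.25, against 0.21 over all genes that passed.

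At least 2-fold apart were 3 of the 53 genes. Gbp1 was the 1 gene higher in the ablated sample, where 0.373% of all genes were 2-fold higher. Ifi202b and Ifit1 were the 2 genes lower (3.77% of the 53), where 1.73% of all genes were 2-fold lower. At 1.5-fold the count stayed at 1 higher gene (1.89% of the 53, against 1.25% of all genes) and came to 5 lower genes (9.43%, against 4.67% of all genes), with Ifi204, Mx2 and Ifi205 added. At 3-fold only Gbp1 was left, with 0.122% of all genes higher and 0.325% lower by as much. The middle 95% of differences over all genes ran from -0.83 to 0.48, and 4 of the 53 genes lay outside it, the 3 named and Ifi27l2a (0.51).

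**Figure D1:**
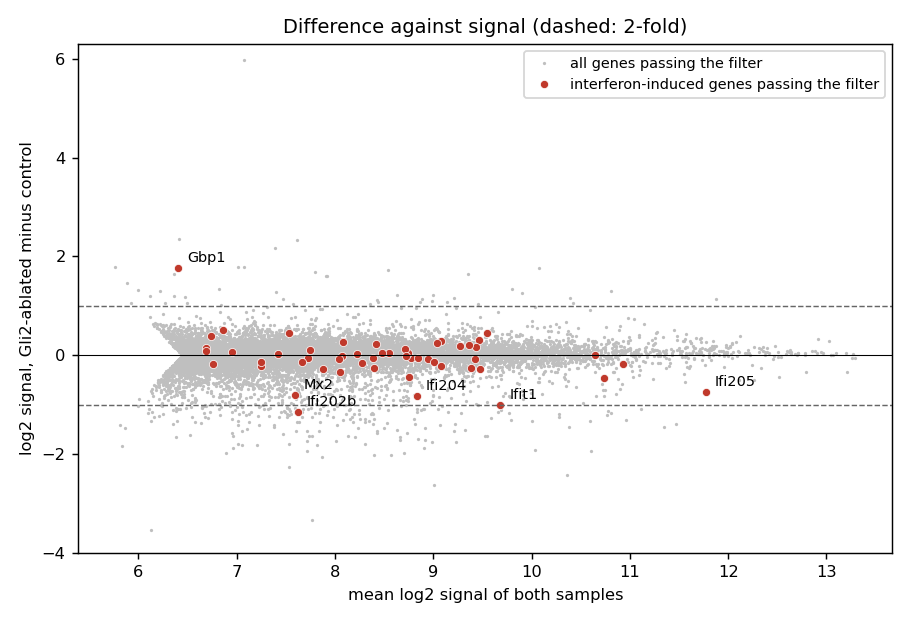
Difference in log2 signal, Gli2-ablated minus control, against the mean log2 signal of both samples, for all 12323 genes passing the filter (grey) and the 53 interferon-induced genes among them (red). Dashed lines mark 2-fold; Gbp1 lies above the upper line, Ifi202b below the lower and Ifit1 on it, and the other red points lie between them.

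**Figure D2:**
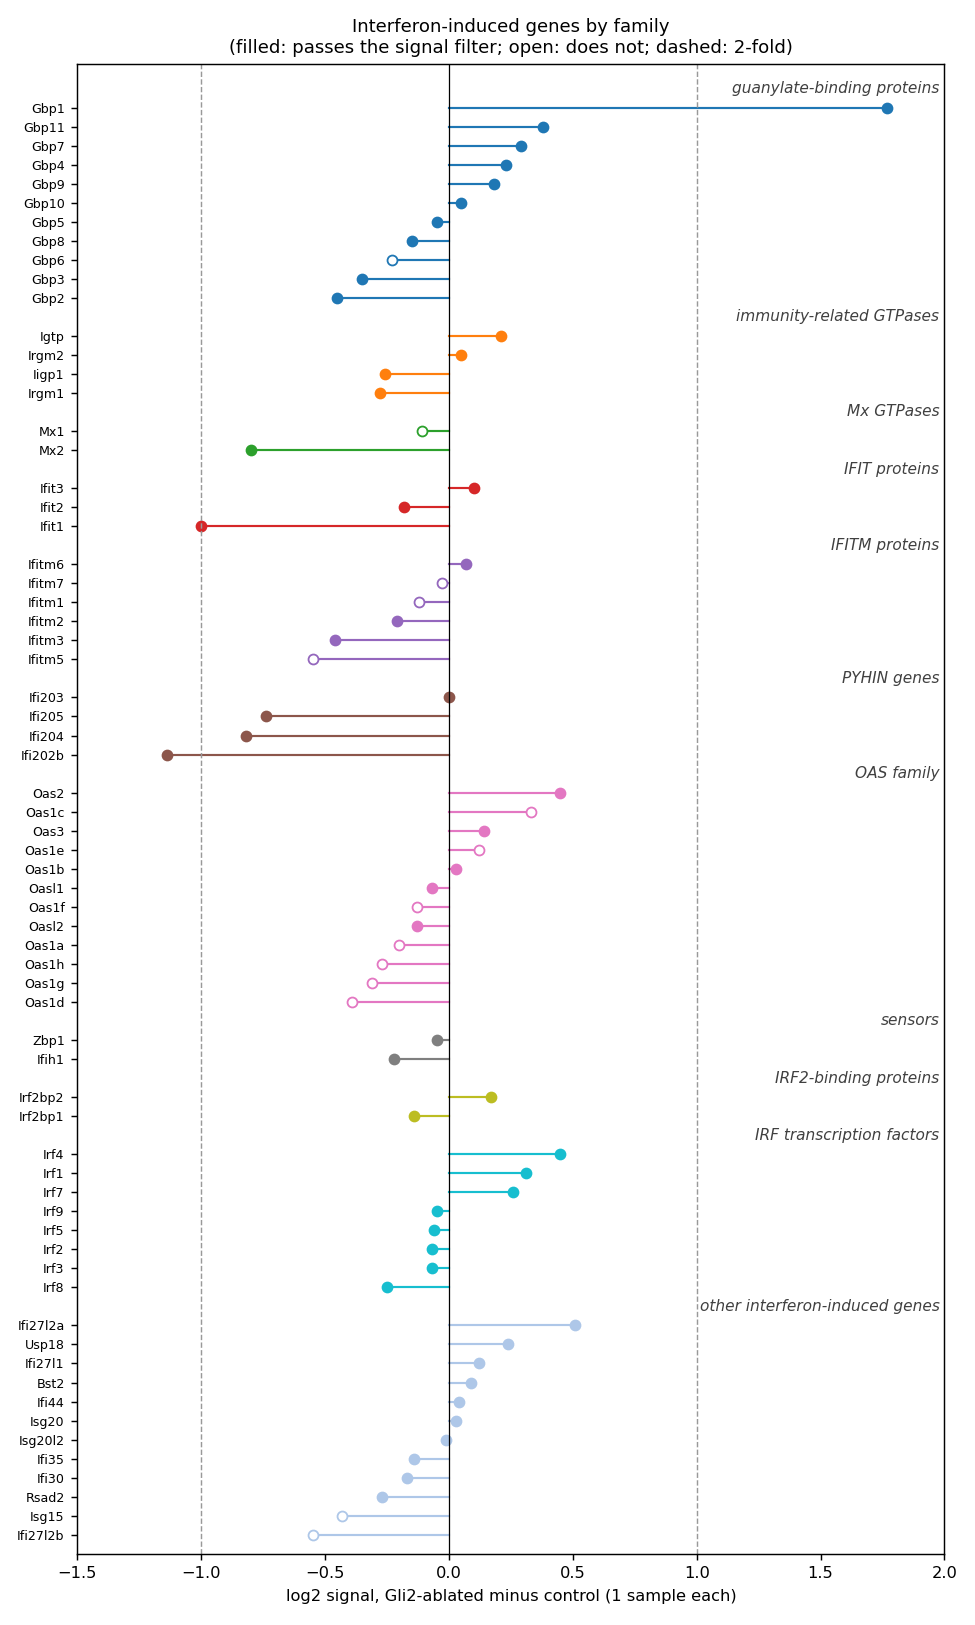
Difference in log2 signal, Gli2-ablated minus control, for 66 of the 67 genes, by family, with 1 sample per group. Filled points passed the signal filter and open points did not; the PYHIN genes Ifi202b, Ifi204 and Ifi205 lie at -1.14 to -0.74, and most other families lie on both sides of 0.

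The guanylate-binding proteins split by gene and not as a family. Of 11, 10 passed the filter, 6 higher and 4 lower in the ablated sample, and the median was 0.12 (0.06 to 0.10 under other scalings). Gbp1, which RefSeq now names Gbp2b by its transcript, had a log2 signal of 7.29 in the ablated sample and 5.52 in the control sample. The control signal lay under the filter and may be background, so the size of the difference (1.77, or 3.41-fold) is uncertain. Among genes of like signal the differences had a spread of 0.46 (scaled median absolute deviation), and 8 of all 12323 genes, Gbp1 included, had a difference as high. Gbp1 lay in the dimmest of 20 signal bins. A gene with a mean signal below the filter passes only if its signals differ, so the filter itself widens the spread there. That spread is therefore no measure of noise among dim genes. In brighter bins the spread describes these arrays, and in none is it an error of a replicate.

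Its neighbours on the same chromosome did not share this difference. In RefSeq order the cluster runs Gbp5, Gbp7, Gbp3, Gbp2b and Gbp2. Gbp2, a GTPase that coats parasite vacuoles, had 8.53 in the ablated sample and 8.98 in the control sample (difference -0.45), the lowest of the family. Gbp3 had 7.88 in the ablated sample and 8.23 in the control sample (difference -0.35). Gbp7 had 9.22 in the ablated sample and 8.93 in the control sample (difference 0.29), and Gbp5, known for its part in inflammasome activation, had 8.36 in the ablated sample and 8.41 in the control sample (-0.05). The row of Gbp2 is also described as guanylate binding protein 1 in the table, so the row may not separate the genes; how alike their sequences are was not computed. In the second cluster, on chromosome 5, Gbp4 (0.23), Gbp9 (0.18) and Gbp10 (0.05, or -0.004 after loess) were higher and Gbp8 lower (-0.15), while Gbp6 did not pass (4.42 in the ablated sample and 4.65 in the control sample). Gbp11, which RefSeq lists as a transcribed pseudogene, had 6.93 in the ablated sample and 6.55 in the control sample (0.38). Gbp9 had 9.36 in the ablated sample and 9.18 in the control sample.

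The promoters of this cluster are shown to set the letters of its genes side by side. RefSeq promoters (GRCm38.p6, 250 bases before to 50 after the start) were matched for 46 of the 67 genes and searched for GAAANNGAA, the core of the interferon-stimulated response element, which reads TTCNNTTTC on the other strand, and for TTCNNNGAA, the gamma-activated site, which is its own reverse complement. Overlapping matches were counted, and the motifs can share bases with each other. All 5 guanylate-binding protein genes with a promoter in the table held the first motif, as did 25 of the 46 genes (54.3%), against 9.76% of 27025 genes with a promoter. The stretches shown lie before the start of the gene and run from 15 bases before the first match there to 15 after the last, 5′ to 3′, with the matching letters in capitals.
Gbp2b (Gbp1 of the array, chr3:142594696-142594734, + strand): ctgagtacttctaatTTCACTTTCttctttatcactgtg
Gbp2 (chr3:142620590-142620628, + strand): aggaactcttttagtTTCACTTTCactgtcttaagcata
Gbp3 (chr3:142559985-142560029, + strand): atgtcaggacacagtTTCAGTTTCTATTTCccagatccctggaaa
Gbp7 (chr3:142530269-142530307, + strand): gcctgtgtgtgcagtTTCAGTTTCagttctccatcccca
Gbp5 (chr3:142496755-142496793, + strand): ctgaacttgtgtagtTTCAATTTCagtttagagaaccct
Gbp2b and Gbp2 hold the same 9 letters, and their 39-base stretches share 21 letters in place, while the genes had differences of 1.77 and -0.45. Over the 38 genes that passed the filter and had a promoter, those with the first motif (21 genes) had a median difference of -0.05 and those without it (17 genes) a median of -0.07. The second motif stood in 16 of the 46 genes (34.8%), against 9.55% of all genes with a promoter. A match is a description of letters, not of binding, and its part in the differences was not tested.

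**Figure D3:**
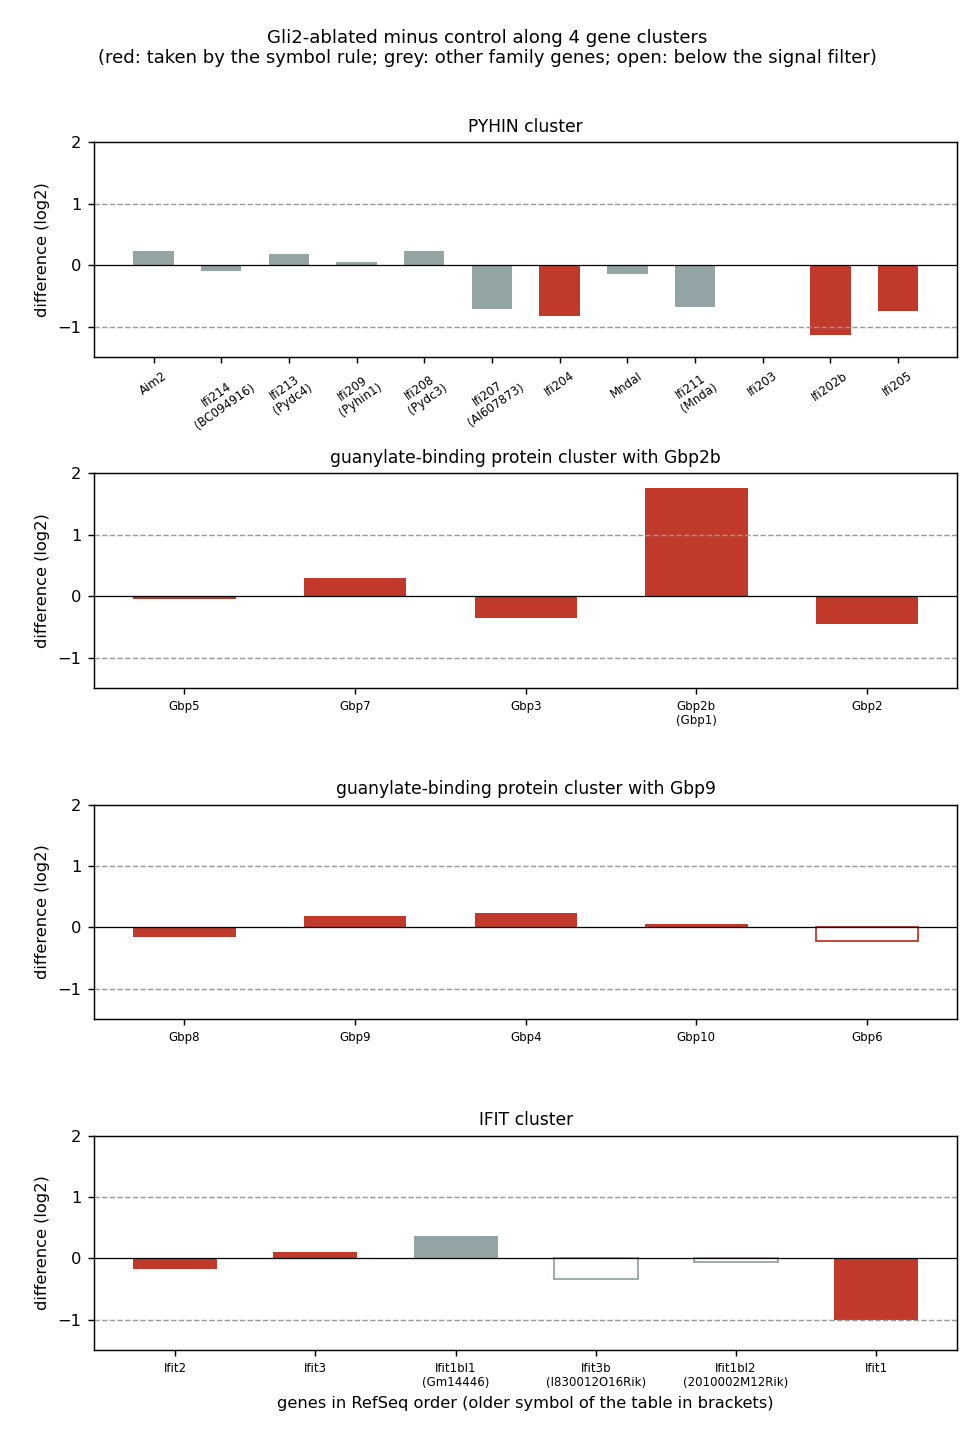
Difference in log2 signal, Gli2-ablated minus control, for neighbouring genes in 4 clusters, in RefSeq order. Red bars are genes taken by the symbol rule, grey bars other genes of the same families, and open bars genes below the signal filter; Gbp2b stands at 1.77 between Gbp3 (-0.35) and Gbp2 (-0.45), Ifit1 at -1.0, and 5 bars of the PYHIN cluster at -0.68 or lower.

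Immunity-related GTPases were close to their control signals. All 4 passed, 2 higher and 2 lower in the ablated sample, and the median was -0.11, with none at 1.5-fold. Igtp, which acts on vacuoles of intracellular parasites, had 9.47 in the ablated sample and 9.26 in the control sample (0.21). Its neighbour Irgm2, a regulator of the other GTPases of the family, had 8.57 in the ablated sample and 8.52 in the control sample (0.05, or -0.004 after loess). Irgm1, another such regulator, had 7.74 in the ablated sample and 8.02 in the control sample (-0.28), and Iigp1 had 8.27 in the ablated sample and 8.53 in the control sample (-0.26). Of the Mx GTPases, Mx2 had 7.19 in the ablated sample and 7.99 in the control sample (difference -0.80, 1.74-fold), and Mx1 did not pass (5.78 in the ablated sample and 5.89 in the control sample). The difference of Mx2 was reached or exceeded downward by 2.78% of all genes.

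Among 17 further GTPases listed beside the symbol rule, 14 were found and 11 passed, 7 higher, 3 lower and 1 at 0, and the median was 0.07. Gm4951, which RefSeq also names Ifgga2, had 9.60 in the ablated sample and 8.39 in the control sample, a difference of 1.21. Its relative Gm4841 (Ifgga3) had 5.95 in the ablated sample and 6.67 in the control sample (-0.72). The predicted gene Gm1966 had 6.40 in the ablated sample and 8.66 in the control sample (-2.26). Dnm1, a dynamin listed as a relative that interferon is not known to induce, had -0.69. The ablated signals of Gm1966 and Gm4841 lay below the filter, which leaves their size uncertain. The immunity-related GTPase Gm12250 (Irgb10, 0.41), the T cell specific GTPase Tgtp2 (0.22) and the very large inducible GTPase Gvin1 (0.15) are named after their values were seen, as is Ifi47, found under the older symbol Olfr56 with a difference of -0.03.

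The PYHIN family is named for pyrin and HIN domains, though not every protein of it carries both. Some of the proteins bind DNA in the nucleus or cytosol. PYHIN genes differed from gene to gene. All 4 taken by the symbol rule passed, and their median was -0.78, which came to -0.12 over the 12 genes of the cluster described further on. Ifi202b had 7.05 in the ablated sample and 8.19 in the control sample, a difference of -1.14 (2.20-fold), in a spread of 0.21 among genes of like signal. Ifi204, an inhibitor of ribosomal RNA transcription and a DNA sensor, had 8.42 in the ablated sample and 9.24 in the control sample (-0.82, 1.77-fold). Ifi205 had 11.40 in the ablated sample and 12.14 in the control sample (-0.74, 1.67-fold), with a spread of 0.13 among genes of like signal. Ifi203 had 10.64 in both samples, and its difference of 0 came to -0.02 to -0.04 under other scalings. The row of Ifi203 is also described as an uncharacterized gene, a gene like Ifi203 and a predicted gene. It may not separate these genes, so the level signal may not be that of Ifi203 alone. As low as Ifi202b were 1.19% of all genes, as low as Ifi204 2.69% and as low as Ifi205 3.11%.

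The table lists more genes of this cluster under older symbols, and their RefSeq transcripts place them in it. These genes were looked up after the values were seen. AI607873 (now Ifi207) had 8.01 in the ablated sample and 8.72 in the control sample (-0.71), and Mnda (now Ifi211) had 10.56 in the ablated sample and 11.24 in the control sample (-0.68). Mndal (-0.15), BC094916 (now Ifi214, -0.09), Pyhin1 (now Ifi209, 0.05), Pydc4 (now Ifi213, 0.19), Pydc3 (now Ifi208, 0.23) and Aim2, the sensor of DNA in the cytosol (0.23), were closer to 0. With these, 12 genes of the cluster passed, 7 lower, 4 higher and 1 at 0, and the median was -0.12. In RefSeq order, Aim2 to Ifi208 stood at one end of the cluster with differences of -0.09 to 0.23, and Ifi207 to Ifi205 at the other with -1.14 to 0. The rows of Ifi204 and Mnda share 1 accession in the table, so their values may not be independent.

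Of this family, Ifi205 and Ifi203 held the letters of the response element, Ifi205 with 2 matches, of which the one before its start is shown, and Ifi202b held those of the gamma-activated site.
Ifi202b (chr1:173982969-173983007, - strand, gamma-activated site letters in capitals): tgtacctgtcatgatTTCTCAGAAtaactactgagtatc
Ifi205 (chr1:174031866-174031904, - strand, response element letters in capitals): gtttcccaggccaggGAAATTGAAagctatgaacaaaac
Ifi203 (chr1:173942504-173942542, - strand, response element letters in capitals): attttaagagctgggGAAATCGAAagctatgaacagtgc
The stretches of Ifi205 and Ifi203, also lined up on the match, share 27 of 39 letters in place, the searched letters included. The rows of these genes had differences of -0.74 and 0. The row of Ifi203 may not measure that gene alone.

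**Figure D4:**
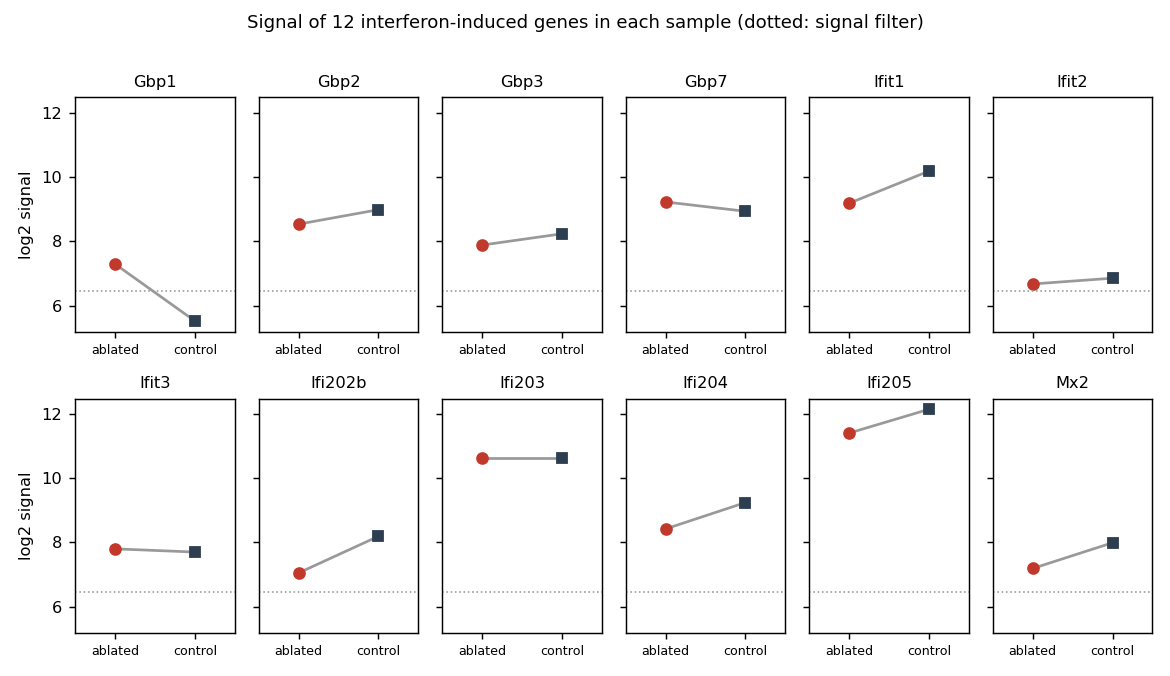
Log2 signal of 12 genes in the Gli2-ablated sample (circles, left) and the control sample (squares, right), 1 sample each, with the signal filter of 6.445 dotted. Ifit1, Ifi202b, Ifi204, Ifi205 and Mx2 lie lower in the ablated sample, Gbp1 lies higher, and Ifi203 is level at 10.64.

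In the IFIT family, whose proteins bind viral RNA at its 5′ end, 1 of 3 genes was 2-fold apart. Ifit1 had 9.18 in the ablated sample and 10.18 in the control sample, a difference of -1.0 that met the 2-fold mark exactly, in a spread of 0.15 among genes of like signal. Ifit2 had 6.67 in the ablated sample and 6.85 in the control sample (-0.18). Ifit3, a partner of Ifit1 in complexes, had 7.80 in the ablated sample and 7.70 in the control sample (0.10). Of the related genes under older symbols, Gm14446 (now Ifit1bl1) had 7.57 in the ablated sample and 7.20 in the control sample (0.37), and I830012O16Rik (now Ifit3b) and 2010002M12Rik (now Ifit1bl2) did not pass. The promoters of Ifit1 and Ifit3, shown to set their letters side by side, each held 3 matches to the response element, in capitals, and no match to it was found in the windows of Ifit2.
Ifit1 (chr19:34640765-34640828, + strand): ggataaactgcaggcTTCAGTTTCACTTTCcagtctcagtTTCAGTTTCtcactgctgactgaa
Ifit3 (chr19:34583359-34583450, + strand): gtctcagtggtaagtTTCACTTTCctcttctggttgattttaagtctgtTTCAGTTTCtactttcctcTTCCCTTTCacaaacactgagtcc

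Of 6 IFITM genes, 3 passed. Ifitm3, which restricts entry of influenza virus, had 10.51 in the ablated sample and 10.97 in the control sample (-0.46). Ifitm2 had 7.14 in the ablated sample and 7.35 in the control sample (-0.21), and Ifitm6 had 6.99 in the ablated sample and 6.92 in the control sample (0.07). Ifitm1, Ifitm5 and Ifitm7 did not pass, and Ifitm5, a bone protein, had 5.86 in the ablated sample and 6.41 in the control sample. The RefSeq transcripts on the rows of Ifitm7 belong to Bmerb1, so those rows may measure another gene. Ifitm10, under the older symbol 6330512M04Rik, was at -0.13.

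The OAS family had small differences and many dim rows. Of 12 genes 5 passed, 3 higher and 2 lower in the ablated sample, and the median of 0.03 came to 0 with quantile scaling and -0.005 after loess. Oas2 had 7.76 in the ablated sample and 7.31 in the control sample (0.45), and its neighbour Oas3 had 6.76 in the ablated sample and 6.62 in the control sample (0.14). Oas1b, known in mice for resistance to flaviviruses, had 7.43 in the ablated sample and 7.40 in the control sample (0.03, or -0.005 after loess). Oasl1, a translational regulator of Irf7 in mice, had 8.91 in the ablated sample and 8.98 in the control sample (-0.07), and Oasl2 had 7.60 in the ablated sample and 7.73 in the control sample (-0.13). Oas1a and Oas1g, which share 2 accessions in the table, and the 5 other Oas1 genes did not pass. Their signals ran from 3.44 to 6.35 in the ablated sample and from 3.71 to 6.43 in the control sample.

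Both sensors taken by the rule passed and were near 0. Ifih1, the RNA sensor MDA5, had 8.97 in the ablated sample and 9.19 in the control sample (-0.22). Zbp1, which senses left-handed nucleic acids and can start necroptosis, had 8.82 in the ablated sample and 8.87 in the control sample (-0.05).

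All 9 interferon regulatory factors passed, 3 higher and 6 lower in the ablated sample, and the median was -0.05. Irf4, a factor of lymphocytes and some dendritic cells, had 9.77 in the ablated sample and 9.32 in the control sample (0.45). Irf1, an early target of interferon gamma, had 9.62 in the ablated sample and 9.31 in the control sample (0.31). Irf7, which amplifies type I interferon, had 8.21 in the ablated sample and 7.95 in the control sample (0.26). Irf8, a factor of macrophage and dendritic cell development, was the lowest, with 9.26 in the ablated sample and 9.51 in the control sample (-0.25), and -0.13 on its dimmer row. Irf2, Irf3, Irf5 and Irf9 had differences from -0.07 to -0.05. The row of Irf5 shares 4 accessions with that of Tnpo3. Irf2bp1 and Irf2bp2 had differences of -0.14 and 0.17.

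Of the 12 other interferon-induced genes 10 passed, 6 higher and 4 lower in the ablated sample, and the median was 0.04, which came to -0.02 after loess. Ifi27l2a, a small protein of the ISG12 family, had 7.12 in the ablated sample and 6.61 in the control sample, a difference of 0.51. Its row is also described as Ifi27l2b, so it may not separate these genes. Usp18, the protease that takes ISG15 off proteins and damps the type I receptor, had 9.16 in the ablated sample and 8.92 in the control sample (0.24). Rsad2, or viperin, had 9.34 in the ablated sample and 9.61 in the control sample (-0.27). Ifi30, a thiol reductase of antigen processing, had 10.84 in the ablated sample and 11.01 in the control sample (-0.17), and Ifi35 was at -0.14. Ifi27l1 (0.12), Bst2, or tetherin (0.09), Ifi44 (0.04), Isg20 (0.03) and Isg20l2 (-0.01) were closer to 0, and after loess Ifi44 and Isg20 were also below it. Isg15, the ubiquitin-like modifier, did not pass, at 5.68 in the ablated sample and 6.11 in the control sample, and neither did Ifi27l2b.

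Upstream of these genes, 17 of 21 listed interferon ligands were found and 6 passed, 2 higher and 4 lower in the ablated sample. Ifng, the ligand of T and NK cells, had 8.11 in the ablated sample and 7.61 in the control sample (0.50). Ifna4 had 7.74 in the ablated sample and 8.58 in the control sample (-0.84), Ifna5 was at -0.29, Ifna14 at -0.25, Ifnz at -0.03 and Ifna1 at 0.08. The Ifna genes are closely related copies that an array may not separate. Of 13 receptor and signalling genes found, all 13 passed, 9 higher and 4 lower, with a median of 0.14. Ifnar1 was at 0.22 and Ifnar2 at -0.03, Ifngr1 at 0.18 and Ifngr2 at 0.17, and Il10rb, a chain of the type III receptor, at 0.05. The kinases Jak1, Jak2 and Tyk2 were at 0.18, -0.03 and -0.07. Stat2, a part of the type I complex, had 8.49 in the ablated sample and 8.80 in the control sample (-0.31).

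Of 22 other nucleic acid sensors and adaptors found, 21 passed, 10 higher and 10 lower in the ablated sample, and the median was 0 (-0.02 to -0.05 under other scalings). Farthest from 0 were Tlr3, the receptor for double-stranded RNA, with 7.34 in the ablated sample and 7.97 in the control sample (-0.63), Tlr7, the receptor for single-stranded RNA (0.38), Eif2ak2, the kinase PKR (-0.37), and Tlr4, the receptor for endotoxin (-0.33). Of 47 other interferon-stimulated genes found, 46 passed, 20 higher and 26 lower, with a median of -0.10. In that list 3 genes were at least 2-fold lower and 0 at least 2-fold higher, against 1.73% and 0.373% of all genes. Trim34a had 4.91 in the ablated sample and 6.75 in the control sample (-1.84). Cxcl9 and Cxcl11, chemokines that draw T cells, had 7.52 and 6.49 in the ablated sample, against 8.71 and 7.63 in the control sample (-1.19 and -1.14). Mlkl, the effector of necroptosis, had 6.35 in the ablated sample and 7.17 in the control sample (-0.82). The ablated signals of Trim34a and Mlkl, and that of Tlr4, lay below the filter, so the sizes of their differences are uncertain.

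Markers of several cell types differed between the samples alongside these values. All 8 fibroblast markers were lower in the ablated sample (median -1.54), and their summed linear signal was 6955 in the ablated sample and 13244 in the control sample. So were 5 of 5 endothelial markers (median -0.64, with Cldn5 and Tek below the filter in the ablated sample). Macrophage markers were lower in 7 of 8 cases (median -0.26) and dendritic cell markers in 7 of 7 (median -0.08), against 44.8% of all genes. Of the macrophage markers, Emr1 and Cd14 were at -0.01 and -0.03 and Mrc1 was higher (0.20). The other macrophage markers ran from -0.59 (C1qa) to -0.19 (Lyz2). Of the dendritic cell markers, Flt3, Xcr1, Zbtb46 and Ccr9 were at -0.08 to -0.01, Siglech at -0.17, Itgax at -0.29 and Clec9a at -0.61. By contrast, 11 of 11 markers of T and NK cells were higher (median 0.29), against 6529 of all 12323 genes. These markers ran from 0.01 (Gzma), under the median of 0.02 over all genes, to 0.96 (Klrk1). Their summed linear signal was 12957 in the ablated sample and 10446 in the control sample. B cell markers were higher in 4 of 5 cases (median 0.04, or -0.01 after loess), and epithelial markers lower in 2 of 3 that passed. Neutrophil markers were dim, with 1 of 4 passing, and 2 of 4 adipocyte markers passed, both lower (median -0.78). In such bulk samples fewer cells of a type and less RNA per cell cannot be told apart. The part of these cell types in the lower Ifi202b, Ifi204, Ifi205, Ifit1 and Mx2 signals and in the higher Ifng, Irf4 and Gbp1 signals was not tested.

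**Figure D5:**
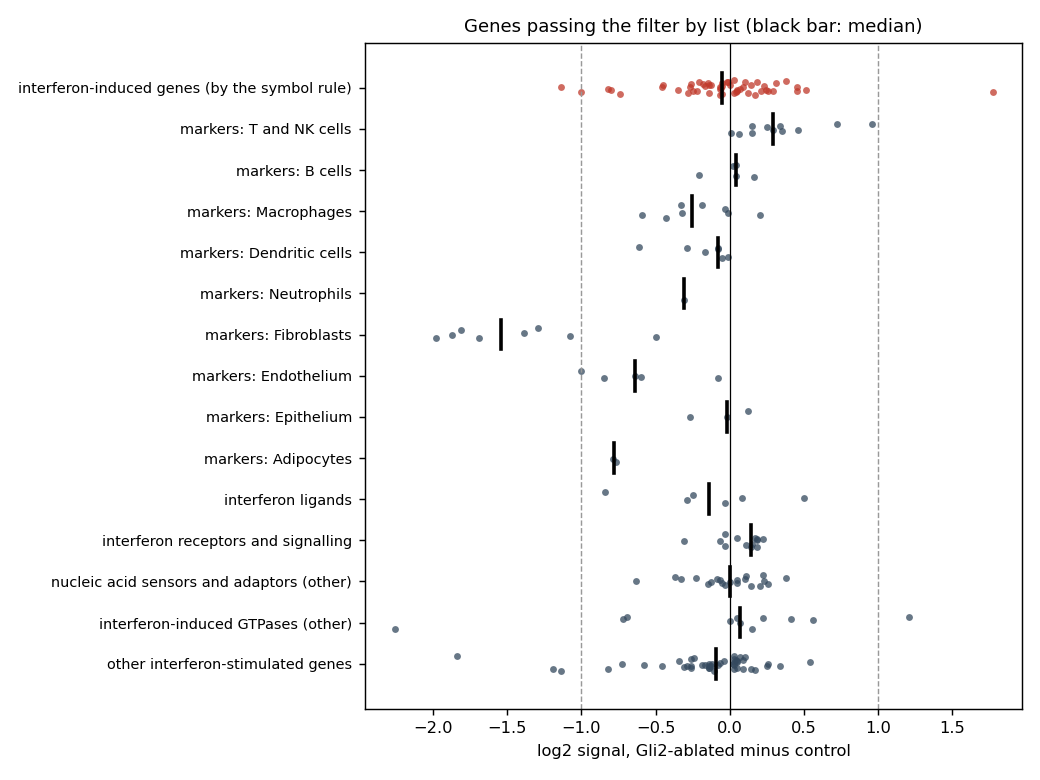
Difference in log2 signal, Gli2-ablated minus control, of genes passing the filter, for the 53 interferon-induced genes (red) and for cell type marker lists and other lists of the pathway (dark), each point a gene and each black bar the list's median. The median of the interferon-induced genes is -0.05, that of fibroblast markers -1.54 and that of T and NK cell markers 0.29; dashed lines mark 2-fold.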

How the data were processed

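Per the file headers, the values deposited for each transcript cluster and sample are bi-weight average log2 signals, with a signed linear fold (held here as a score) that the authors deposited beside them. The labels describe biotinylated cRNA on Affymetrix arrays, and the submitters' processing notes name Transcriptome Analysis Console. Neither says which array, normalization, background correction or genome build was used, and detection calls were not used here. The table of log2 values deposited with the series differed from these by at most 0.00869 in the differences of these genes.

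Differences are log2 signal of the ablated sample minus control, per symbol on the row with the highest mean signal, over 12323 genes whose higher signal reached 6.445. Genes were counted at 2-fold, with no p-value, and the number of arrays limits the precision. Genes of the symbol rule are named by family; in each pathway list the 4 genes farthest from 0, and the interferon ligands, receptors, kinases and STATs that passed, are named, except items not reported here. Other genes are named after their values were seen, as stated there. Members and lists were chosen with earlier results of these data known. RefSeq (GRCm38.p6) gave names by transcript, gene order and promoters. Steps were tested on simulated data. Alternatives were other scalings, rows, filters and folds. Tables were computed in Python 3.11.15 with pandas 2.3.3 and numpy 2.4.6, loess with statsmodels 0.14.6, and figures with matplotlib 3.10.9.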

Additional observations from a re-analysis of the deposited data

How the results depend on the processing

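No paired analysis was possible because each group has 1 sample, and for the same reason no sample could be left out. The 1 gene at least 2-fold higher, Gbp1, became 0 under a filter set at the 75th percentile and 0 under one on the mean signal. The percentile filter uses the brighter signal, which for Gbp1 was only 7.29, in the ablated sample. The mean signal also takes in its dim control signal of 5.52. The 2 genes at least 2-fold lower became 5 at 1.5-fold and 0 at 3-fold, as those thresholds imply, and stayed at 2 in the other settings. The median over the genes that passed ran from -0.10 (loess with a span of 0.3) to -0.04. The share below 0 ran from 54.7% (29 of 53, against 44.8% of all genes) to 66.0% after loess (35 of 53, against 53.8%). With quantile scaling it was 56.6%, against 49.5% of all genes. It was 61.5% (24 of 39, against 39.6%) under the 75th-percentile filter and 61.2% (41 of 67, against 47.0%) with no filter. Under the 75th-percentile filter, the median of the IFIT and IFITM families each rested on 1 gene (-1.0 and -0.46), and without a filter that of the Mx GTPases was -0.46. Adding the 6 PYHIN genes under older symbols together with Aim2 and Mndal, an alternative chosen after seeing the data, moved that family's median to -0.12 over 12 genes. The medians of the OAS family, the IRF2-binding proteins and the other interferon-induced genes were 0 or below it under at least 1 other scaling. A planned comparison of protein sequences was not run. Signal over background is not given, so the 14 genes below the filter have no reliable difference.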
